A study of Mus musculus with 10 samples.

Results

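The genes described are 9 that encode secreted antimicrobial and defence proteins of the skin: the β-defensins Defb3, Defb4 and Defb6, the siderophore-binding lipocalin Lcn2, the protease inhibitors and related WAP (whey acidic protein) domain genes Slpi, Wfdc12 and Wfdc21, the acute-phase gene Saa1 and the chitinase-like gene Chil1. They were chosen by symbol, with earlier results of these data known. All 9 were among the 9779 genes present in both deposited expression tables.

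β-Defensins are short cationic peptides, held together by disulfide bonds, that damage microbial membranes, and keratinocytes release them when the barrier is breached or inflamed. Lipocalin 2 starves bacteria of iron by binding their siderophores. Secretory leukocyte protease inhibitor, the product of Slpi, blocks neutrophil elastase and also kills microbes. Keratinocytes raise many of these genes in response to IL-17, IL-22 and IL-1 family cytokines, and their products are abundant in psoriatic plaques, while neutrophils are another source of lipocalin 2, the chitinase-like protein and Slpi.

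The 10 libraries came from skin of C57BL/6 mice aged 6 to 8 weeks, labelled as ear skin and treated on the skin surface for 6 days. The groups were benzamil with imiquimod (n = 4), the solvent DMSO with imiquimod (n = 4) and untreated skin (n = 2). Imiquimod is a Toll-like receptor agonist whose repeated use on mouse skin gives a psoriasis-like inflammation. Benzamil is an amiloride analogue that blocks the epithelial sodium channel. Both imiquimod groups carry imiquimod, so benzamil over DMSO asks what the blocker changed in inflamed skin, and DMSO over untreated asks what imiquimod with solvent changed. The labels give no sample with benzamil or DMSO alone, and the series' design describes the untreated control as back skin, so body site and treatment cannot be told apart in that comparison. Whether replicates came from different mice is not labelled, and the tests therefore weigh differences only against a library-to-library spread that could be technical.

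Depth was low, with 138440 to 375455 reads with benzamil, 259262 to 935714 reads with DMSO and 71144 to 74614 reads in untreated skin. Levels are CPM (reads per 1e6 library reads) scaled by trimmed-mean (TMM) library size, on which 1 read was worth 3.03 to 7.94 CPM in benzamil libraries, 1.04 to 3.68 CPM in DMSO libraries and 13.5 to 14.8 CPM in untreated libraries. Ribosomal RNA genes took 30.96% to 45.71% of reads with benzamil, 22.05% to 28.77% with DMSO and 34.19% to 38.62% in untreated skin. A gene was called when edgeR's quasi-likelihood test gave a Benjamini-Hochberg adjusted p under 0.05 over the 5245 genes tested. Keratinocyte markers were high in all libraries: summed basal keratinocyte markers (8 of 8 genes) lay at 15219.2 to 17900.5 CPM with benzamil, 15481.8 to 19790.7 CPM with DMSO and 11790.9 to 13634.6 CPM in untreated skin.

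The 3 defensin genes lie together on mouse chromosome 8 (mm10, GENCODE M21, forward strand): Defb4 at chr8:19198706-19201545, Defb6 at chr8:19225478-19228209 and Defb3 at chr8:19293360-19295291. Defb4 and Defb6 are 23.9 kb apart and Defb6 and Defb3 65.2 kb apart. Their coding sequences are shown because they define the family and because near-identical copies could share reads. Each has 192 coding bases, and capitals mark the codons for cysteine, 6 in each gene, which form the 3 disulfide bonds typical of a β-defensin.
Defb3: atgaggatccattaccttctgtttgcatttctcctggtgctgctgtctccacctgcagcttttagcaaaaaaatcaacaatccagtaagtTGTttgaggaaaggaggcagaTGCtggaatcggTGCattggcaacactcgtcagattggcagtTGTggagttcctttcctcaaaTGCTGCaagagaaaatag
Defb4: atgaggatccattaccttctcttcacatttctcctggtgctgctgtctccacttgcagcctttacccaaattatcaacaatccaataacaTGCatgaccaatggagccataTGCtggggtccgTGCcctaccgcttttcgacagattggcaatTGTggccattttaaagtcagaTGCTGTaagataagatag
Defb6: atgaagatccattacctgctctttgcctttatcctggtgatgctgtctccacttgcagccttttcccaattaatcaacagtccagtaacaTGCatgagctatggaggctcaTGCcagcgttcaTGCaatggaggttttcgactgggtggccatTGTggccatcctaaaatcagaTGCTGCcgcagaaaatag
In all 3 sequences the cysteine codons are codons 31, 38, 42, 52, 59 and 60. Defb3 and Defb4 share 146 of 192 coding bases (76.0%), Defb3 and Defb6 138 (71.9%), and Defb4 and Defb6 151 (78.6%). The libraries read transcript ends, so words of 31 bases within the last 300 bases of each annotated transcript were searched for in the transcripts of other genes. Defb4 and Defb6 shared none, and Defb3 shared 4 of 245 words (1.6%) with Defb4, Defb5 and Defb8. Saa1 shared 55 of 270 words (20.4%) with Saa2, so its reads are uncertain between the pair. Wfdc12 shared 7 of 270 words (2.6%), and Lcn2, Slpi, Chil1 and Wfdc21 shared none.

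Sequence before the transcription start was available for 7 of the 9 genes (RefSeq, GRCm38.p6). Defb4 and Wfdc21 were the other two. Capitals mark matches, on either strand, to TTGCNNAA, a core recognised by C/EBP factors, and to the NF-kB consensus. They are shown for 4 genes that were lower with benzamil, each over the 250 bases before its start. Slpi and Chil1, which were lower too, are not shown, and Chil1 did not hold the C/EBP word.
Defb3, chr8:19293111-19293360, forward strand: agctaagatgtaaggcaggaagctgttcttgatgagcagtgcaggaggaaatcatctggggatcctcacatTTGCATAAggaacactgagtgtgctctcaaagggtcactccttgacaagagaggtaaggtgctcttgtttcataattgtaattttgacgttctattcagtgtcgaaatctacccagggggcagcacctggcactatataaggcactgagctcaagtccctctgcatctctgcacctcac
Defb6, chr8:19225228-19225477, forward strand: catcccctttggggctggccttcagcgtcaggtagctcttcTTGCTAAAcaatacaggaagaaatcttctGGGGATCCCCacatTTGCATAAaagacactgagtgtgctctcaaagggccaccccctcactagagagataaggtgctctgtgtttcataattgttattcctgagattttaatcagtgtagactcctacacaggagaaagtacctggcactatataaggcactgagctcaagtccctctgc
Lcn2, chr2:32387740-32387989, reverse strand: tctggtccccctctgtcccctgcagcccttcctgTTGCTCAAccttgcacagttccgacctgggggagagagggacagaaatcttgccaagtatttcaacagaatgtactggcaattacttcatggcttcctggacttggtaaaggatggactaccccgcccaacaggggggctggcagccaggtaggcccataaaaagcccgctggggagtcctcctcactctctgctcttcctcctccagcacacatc
Saa1, chr7:46742981-46743230, reverse strand: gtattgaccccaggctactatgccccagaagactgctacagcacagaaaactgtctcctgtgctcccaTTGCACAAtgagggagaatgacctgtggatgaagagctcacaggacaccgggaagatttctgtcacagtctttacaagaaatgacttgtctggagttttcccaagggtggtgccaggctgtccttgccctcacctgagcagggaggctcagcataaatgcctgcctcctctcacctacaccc
The C/EBP word was in 6 of the 7 sequences (Defb3, Defb6, Lcn2, Slpi, Saa1 and Wfdc12), and 9.56% of 32851 mouse promoter sequences of the same length hold it. Matches began 166 to 241 bases before the start. Defb6 held the word at 209 and at 166 bases. The Defb3 and Defb6 windows hold the same TTGCATAA amid similar letters, so these neighbouring genes are not independent cases. The NF-kB consensus was in Defb6, at 180 bases, and Chil1, at 179 bases, and in 7.25% of all promoters. AP-1 (TGANTCA, 6.75% of all promoters) and STAT (TTCNNNGAA, 7.02%) words were in 0 of the 7, which says only that these letters are not in these windows. A match is a description of the letters and not of a bound site, and Wfdc12, which was not called with benzamil, held the C/EBP word too.

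Most of this secreted defence set was lower with benzamil in imiquimod-treated skin. Defb3, Defb4, Defb6, Lcn2, Slpi, Saa1 and Chil1 fell with benzamil, Wfdc21 rose, and Wfdc12 did not pass the test. Of all tested genes, 12.1% were called lower and 9.91% higher in this comparison (22.0% in either direction, 635 lower and 520 higher genes). Scaling by total reads alone gave 1009 lower and 248 higher genes and the same calls for the 9 genes. Fewer producing cells and less RNA per cell cannot be told apart in whole skin. Of the 7 lower genes, 5 (Defb3, Defb4, Lcn2, Slpi and Saa1) passed the filter on low values through DMSO libraries alone, so the count of 7 is not evidence beyond the single genes. With no filter, over 9779 genes of which 7.81% were lower, the same 7 genes were lower and Wfdc21 was higher. Neutrophil markers were lower in sum too: over 6 of 16 listed markers in both tables, the summed level was 20.0 to 63.7 CPM with benzamil, 72.9 to 160.0 CPM with DMSO and 0 to 13.5 CPM in untreated skin. Single markers differed: Cxcr2, Retnlg, Stfa2l1, Trem1 and Hdc had lower levels with benzamil than with DMSO, Retnlg and Stfa2l1 at 0, while Il1r2 had 28 of the 46 benzamil reads of the list and pooled levels of 30.9 CPM with benzamil, 22.9 CPM with DMSO and 7.06 CPM in untreated skin. The granule genes Elane, Mpo, Ngp, Camp and Ltf were not analysed here, and the part of neutrophils in these results was not tested. Markers of other tissue parts were higher with benzamil. Sebaceous gland markers (11 of 12 in both tables) summed to 5405.6 to 9069.4 CPM with benzamil and 2054.1 to 3808.7 CPM with DMSO, with 6 of 10 tested called higher and 0 lower. Skeletal muscle markers (9 of 9) summed to 627.4 to 1428.5 CPM with benzamil and 169.3 to 1026.4 CPM with DMSO, with 7 of 9 called higher and 0 lower. The part of either tissue in the results was not tested.

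**Figure D1:**
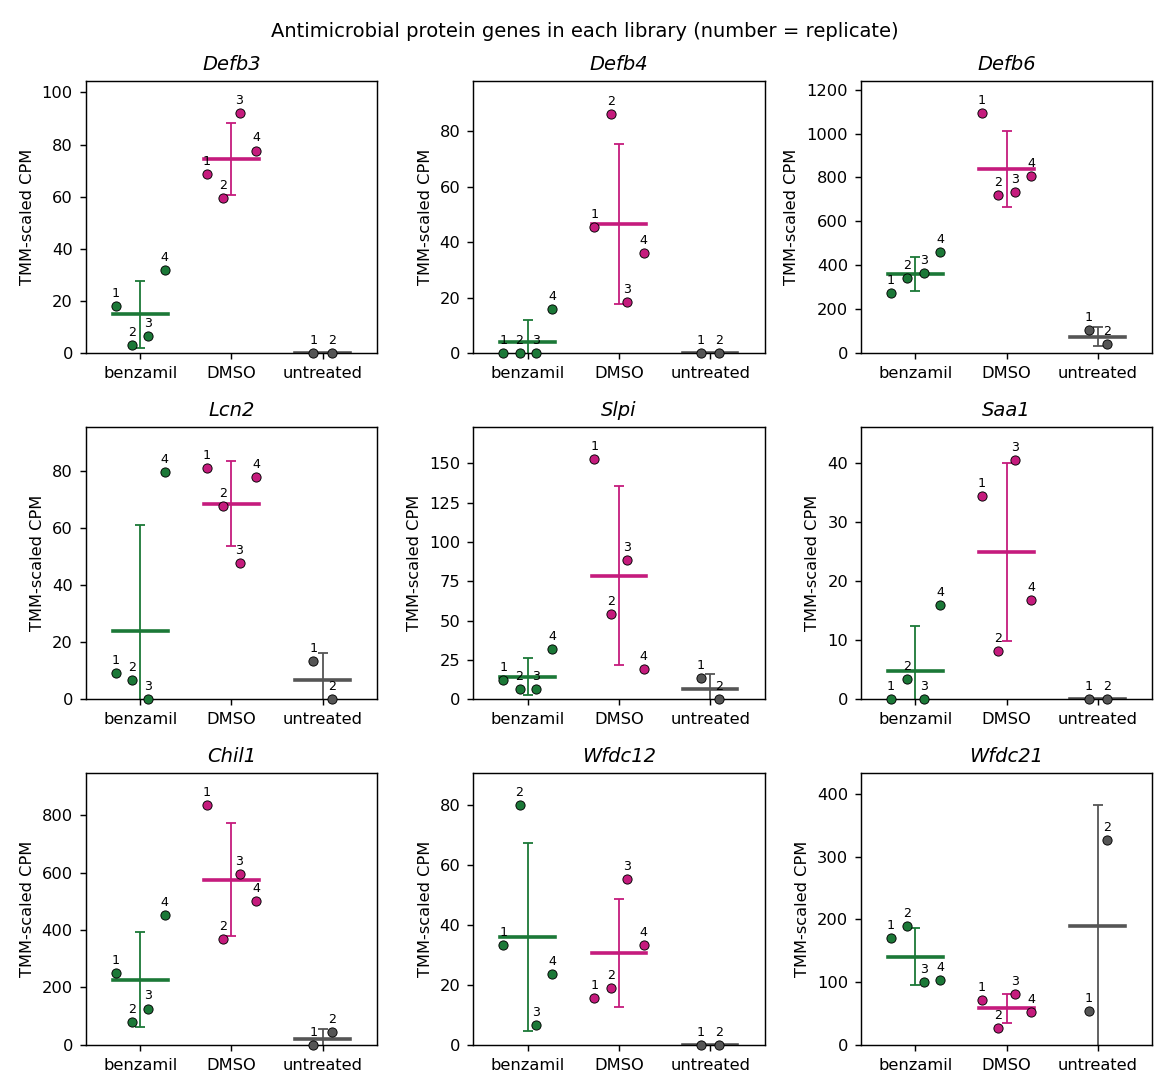
TMM-scaled CPM of the 9 genes (vertical axes, each with its own scale from 0) in benzamil, DMSO and untreated libraries; points are libraries with their replicate number, thick lines are means and thin bars SD. Every benzamil library lies below every DMSO library for the 3 defensins, as for 13.4% of tested genes. For Defb4 that gap rests on libraries with 0 reads. Wfdc21 has every benzamil library above every DMSO library, as for 11.1% of tested genes. Benzamil library 4 stands at 79.4 CPM for Lcn2.

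All 3 defensins had a lower CPM in every benzamil library than in any DMSO library, although for Defb4 the gap rests on libraries with 0 reads, of which benzamil library 3 allows up to 20.0 CPM, above DMSO library 3 at 18.4 CPM. Such a gap in the lower direction occurred in 13.4% of tested genes. Defb6, the defensin with the most reads, stood at 276.0, 343.9, 366.9 and 460.6 CPM with benzamil, against 1094.0, 721.2, 735.8 and 807.8 CPM with DMSO. It averaged 361.9 ± 76.3 CPM with benzamil and 839.7 ± 173.7 CPM with DMSO (SD, n = 4 each), a log2 fold change of -1.25 ± 0.21 (SE) with an adjusted p of 0.000162. DMSO library 1 was the highest, and leaving it out did not end the call.

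Defb3, an inducible epithelial defensin of the mouse, was measured at 18.2, 3.34, 6.67 and 31.8 CPM with benzamil, against 68.6, 59.4, 92.0 and 77.7 CPM with DMSO. The 4 benzamil values rest on 12 reads in all, 4 of them in library 4. The level of each benzamil library, and so its gap to the DMSO range, is loosely fixed. Its log2 fold change was -2.42 ± 0.43 (SE, adjusted p = 0.000292), and it was called in 19 of 19 alternative fits that tested it.

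Defb4 gave 0 reads in benzamil libraries 1, 2 and 3 and 2 reads in library 4, against 44, 32, 5 and 13 reads with DMSO. With 0 reads, 3 reads remain possible, so the 3 empty libraries allow levels of up to 9.1, 10.0 and 20.0 CPM. Pooled reads put Defb4 21.6-fold lower with benzamil, with a 95% counting interval of 5.83-fold to 181.4-fold, and the adjusted p was 0.000695. The fitted log2 fold change was -4.18 ± 0.81 (SE), and it moved to -6.94 without benzamil library 4, as it depends on the prior count where a group is near 0 reads.

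Lcn2 was low in 3 of 4 benzamil libraries, at 9.1, 6.68 and 0 CPM, while library 4 stood at 79.4 CPM. The DMSO libraries held 81.0, 67.5, 47.8 and 77.7 CPM, so benzamil library 4 lies inside the DMSO range. The log2 fold change was -2.01 ± 0.51 (SE, adjusted p = 0.00617). It was -3.39 without benzamil library 4 (adjusted p = 5.97e-05), and the adjusted p was 0.0524 without benzamil library 1.

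Slpi, the elastase inhibitor, stood at 12.1, 6.68, 6.67 and 31.8 CPM with benzamil, against 152.7, 54.0, 88.3 and 19.4 CPM with DMSO. Groups overlapped, since benzamil library 4 was above DMSO library 4. The mean was 14.3 ± 11.9 CPM with benzamil and 78.6 ± 56.8 CPM with DMSO (SD, n = 4 each). Its log2 fold change was -2.76 ± 0.57 (SE, adjusted p = 0.0012), and -2.03 without DMSO library 1, the highest of the group (adjusted p = 0.0187).

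Wfdc21 and Wfdc12, the other WAP domain genes described, were not lower with benzamil. Wfdc21, a small secreted WAP protein gene on chromosome 11 (chr11:83746940-83752642, mm10), stood at 169.8, 190.3, 100.1 and 103.2 CPM with benzamil, against 71.7, 27.0, 80.9 and 52.7 CPM with DMSO. Every benzamil library was above every DMSO library, a gap that 11.1% of tested genes showed in that direction. It averaged 140.9 ± 46.1 CPM with benzamil and 58.1 ± 23.8 CPM with DMSO (SD, n = 4 each), a log2 fold change of 1.33 ± 0.33 (SE, adjusted p = 0.00548). It was called higher in 19 of 19 alternative fits, at 0.84 to 1.52. Suprabasal keratinocyte markers were also higher in sum with benzamil: their level over 10 of 10 genes was 43889.2 to 58935.1 CPM with benzamil, 17049.1 to 34599.9 CPM with DMSO and 14590.2 to 19340.1 CPM in untreated skin. Krt2 weighs heavily in that sum, at 26635.5 ± 8534.0 CPM with benzamil and 8506.8 ± 3011.2 CPM with DMSO (SD, n = 4 each). Flg2 (2.81 ± 0.28), Krt2 (1.65 ± 0.28), Lor (1.03 ± 0.29) and Sbsn (0.91 ± 0.20) were called higher by log2 fold change. The other 6, among them Krt1 (-0.56 ± 0.23) and Dsg1a (-0.01 ± 0.21), were not called. In DMSO over untreated Wfdc21 was called lower, a call that rests on untreated library 2. There 5 of the 10 markers were higher and 1 lower, while 9.93% of tested genes were higher and 8.45% lower. Their part in the Wfdc21 result was not tested.

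Wfdc12, an antibacterial WAP gene on chromosome 2 that lies 163.5 kb from Slpi, stood at 33.4, 80.1, 6.67 and 23.8 CPM with benzamil, against 15.6, 18.9, 55.2 and 33.3 CPM with DMSO. The groups overlapped widely. Its log2 fold change was 0.60 ± 0.49 (SE, adjusted p = 0.395). Pooled reads, 39 with benzamil and 49 with DMSO, gave 1.73 times the level with benzamil (counting interval 1.1 to 2.69, which leaves out the spread between libraries).

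Saa1, whose product is an acute-phase apolipoprotein, had 3 reads over the 4 benzamil libraries (0, 1, 0 and 2) against 33, 3, 11 and 6 reads with DMSO. In CPM the benzamil libraries stood at 0, 3.34, 0 and 15.9, and the DMSO libraries at 34.3, 8.1, 40.5 and 16.7, so benzamil library 4 overlapped the DMSO range. Pooled reads put it 8.14-fold lower with benzamil (counting interval 2.64-fold to 40.7-fold), and the adjusted p was 0.0175. It was 0.0514 without benzamil library 3. The fitted log2 fold change was -2.78 ± 0.82 (SE), and -3.95 without benzamil library 4.

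Chil1, which encodes a protein that binds chitin without cleaving it, stood at 248.7, 80.1, 126.7 and 452.7 CPM with benzamil, against 835.3, 370.0, 596.0 and 499.7 CPM with DMSO. Only benzamil library 4 reached the DMSO range. The means were 227.1 ± 166.4 CPM with benzamil and 575.3 ± 196.5 CPM with DMSO (SD, n = 4 each), a log2 fold change of -1.43 ± 0.34 (SE, adjusted p = 0.00354). When every library was thinned to 71144 reads, Chil1 and Defb6 were the 2 of the 9 genes that could still be tested, and neither was called. Chil1 then had a log2 fold change of -0.71 (adjusted p = 0.751) and Defb6 one of -0.75 (adjusted p = 0.465), while 22 of 1981 genes were called in all.

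**Figure D2:**
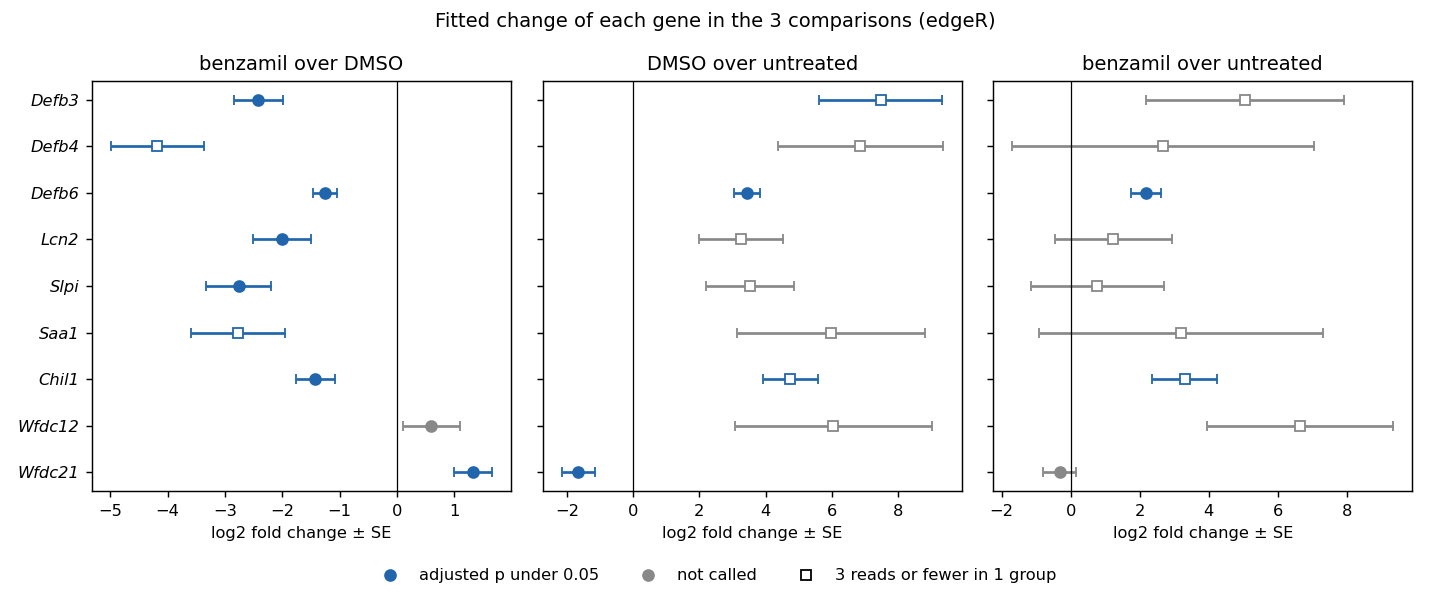
Fitted log2 fold change ± SE (horizontal axes) of the 9 genes in benzamil over DMSO, DMSO over untreated and benzamil over untreated; blue marks an adjusted p under 0.05, grey no call, and open squares a gene with 3 reads or fewer in 1 of the groups, where the fitted size depends on the prior count. Wfdc21 runs opposite to the other called genes in the first 2 panels, at 1.33 and -1.65, the latter resting on untreated library 2.

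Part of the set was higher in imiquimod-treated skin with DMSO than in untreated skin, where Defb3, Defb4, Saa1 and Wfdc12 gave 0 reads and Lcn2 and Slpi 1 read each. Defb3, Defb6 and Chil1 were called higher and Wfdc21 lower, while 9.93% of tested genes were higher and 8.45% lower in this comparison. For 8 of the 9 genes every DMSO library was above both untreated libraries, as it was for 29.5% of tested genes. Wfdc21 overlapped. Of these 8 genes, 5 (Defb3, Defb4, Lcn2, Slpi and Saa1) passed the filter on low values through DMSO libraries alone. The count is therefore not evidence beyond the single genes. In untreated libraries 3 reads are worth 40.4 to 44.5 CPM. The lowest DMSO libraries of Saa1 (8.1 CPM), Wfdc12 (15.6 CPM), Defb4 (18.4 CPM) and Slpi (19.4 CPM) lie under that. Their order against untreated skin is not resolved. These 2 untreated libraries were the shallowest, and they differed from the DMSO libraries in tissue markers too: skeletal muscle markers (9 of 9) summed to 169.3 to 1026.4 CPM with DMSO and 2729.0 to 3203.4 CPM in untreated skin, and fibroblast markers (8 of 9 in both tables) to 537.1 to 1059.5 CPM with DMSO and 8350.0 to 19018.4 CPM in untreated skin. Their part in the results was not tested.

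Defb6 averaged 839.7 ± 173.7 CPM with DMSO (SD, n = 4) against 107.7 and 44.5 CPM in the untreated libraries, a log2 fold change of 3.44 ± 0.40 (SE, adjusted p = 1.56e-06). It was called in 20 of 20 alternative fits. Defb3 had 141 reads with DMSO and 0 in untreated skin, which makes it at least 3.39-fold higher when 3 reads over the untreated group are taken as the floor (adjusted p = 0.00678, and 0.0608 without untreated library 1). Defb4, with 94 reads against 0, was at least 2.26-fold higher by the same floor, but its adjusted p was 0.0552.

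Chil1 gave 1283 reads with DMSO and 3 reads in untreated skin, a pooled ratio of 30.8 (counting interval 10.5 to 149.8, adjusted p = 0.00027). All 3 untreated reads were in untreated library 2. The fitted log2 fold change was 4.75 ± 0.83 (SE), with 3.79 without untreated library 1 and 10.58 without untreated library 2, where the untreated group has no reads.

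Lcn2, with 144 reads with DMSO and 1 in untreated skin, had a pooled ratio of 10.4 (counting interval 1.83 to 413.1, adjusted p = 0.0723). Slpi, with 198 reads with DMSO and 1 in untreated skin, had a pooled ratio of 14.3 (counting interval 2.53 to 566.9, adjusted p = 0.0622). The counting intervals of both lie above 1, while the test, which also weighs the spread between libraries, called neither. Saa1, with 53 reads with DMSO and 0 in untreated skin, was at least 1.27-fold higher (adjusted p = 0.14). Wfdc12, with 49 reads with DMSO and 0 in untreated skin, was at least 1.18-fold higher (adjusted p = 0.152). At this depth these 4 differences did not pass the test.

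Wfdc21 was the gene whose untreated libraries reached the DMSO range, and those 2 libraries lay far apart. It averaged 58.1 ± 23.8 CPM with DMSO (SD, n = 4), against 53.8 CPM in untreated library 1 and 326.3 CPM in untreated library 2. The log2 fold change was -1.65 ± 0.51 (SE, adjusted p = 0.0264). Without untreated library 2 it was 0.24 (adjusted p = 0.866), so the lower call rests on that library.

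Benzamil-treated inflamed skin still held Defb6 and Chil1 above untreated skin. Defb6 averaged 361.9 ± 76.3 CPM with benzamil (SD, n = 4) against 107.7 and 44.5 CPM in untreated libraries, a log2 fold change of 2.19 ± 0.43 (SE, adjusted p = 0.00317, and 0.0642 without untreated library 2). Chil1 gave 182 reads with benzamil and 3 in untreated skin, a ratio of 9.5 (interval 3.2 to 46.5), with an adjusted p of 0.0432. That call was lost in 9 of 18 alternative fits. In this comparison 2.44% of tested genes were higher and 1.56% lower (4.00% in either direction), and the other 7 genes were not called.

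Defb3, Defb6, Chil1 and Wfdc12 (4 of the 9 genes) were higher in every benzamil library than in both untreated libraries, against 19.5% of tested genes. The lowest benzamil values of Defb3 (3.34 CPM) and Wfdc12 (6.67 CPM) are 1 read each. In untreated libraries, where both genes had 0 reads, 1 read is worth 13.5 to 14.8 CPM. For Defb3 and Wfdc12 the order is thus not resolved at this depth. Wfdc12, with 39 reads against 0, was at least 2.04-fold higher (adjusted p = 0.167). Defb3 had 12 reads with benzamil and 0 in untreated skin, which gives no bound above 1. Defb4 and Saa1 were at or under 3 reads in both groups. Benzamil and DMSO share the untreated libraries as their baseline, and benzamil over DMSO shares the DMSO libraries, so the 3 comparisons are not independent of each other.

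Benzamil library 4 held the highest benzamil value for 7 of the 9 genes (all but Wfdc12 and Wfdc21), while it was the highest benzamil library for 28.8% of tested genes. For Chil1 it stood at 452.7 CPM, against 151.9 ± 87.0 CPM in the other 3 benzamil libraries (SD, n = 3). For Slpi it stood at 31.8 CPM, against 8.49 ± 3.15 CPM, and for Defb3 at 31.8 CPM, against 9.4 ± 7.8 CPM. It was the shallowest benzamil library, where 1 read is 7.94 CPM. Its summed neutrophil markers were 31.8 CPM, within the 20.0 to 63.7 CPM of the benzamil group, and its summed macrophage and monocyte markers (8 of 13 in both tables) were 246.2 CPM, against 66.7 to 106.8 CPM in the other benzamil libraries. The part of either in its values was not tested. Without this library the same 7 genes were lower and Wfdc21 was higher in benzamil over DMSO. DMSO library 1 was the highest DMSO library for Defb6, Lcn2, Slpi and Chil1, 4 of the 9 genes, and for 26.8% of tested genes.

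**Figure D3:**
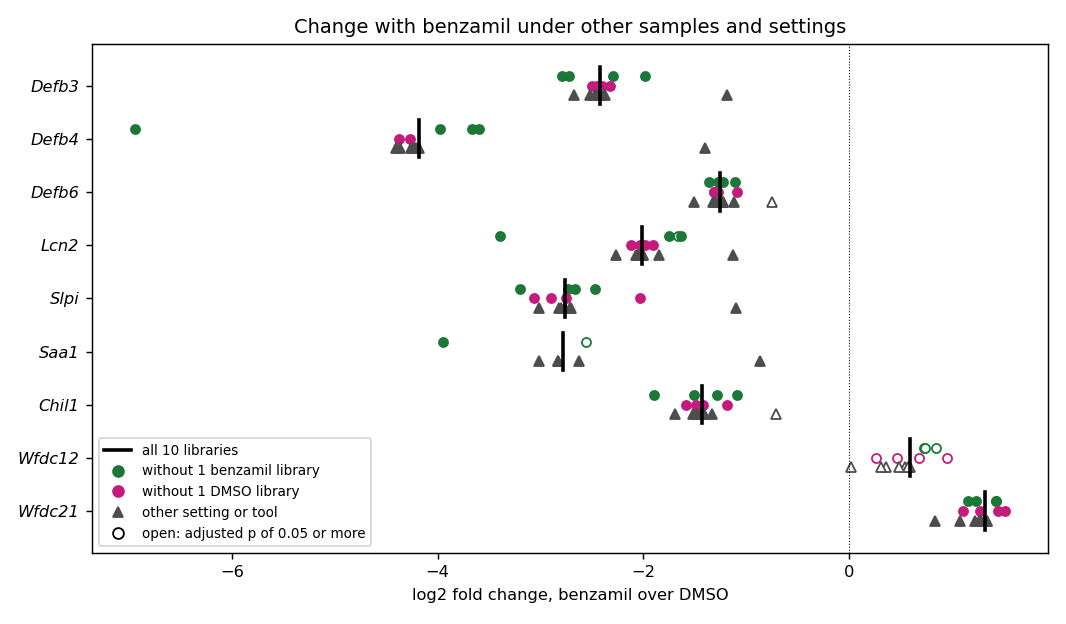
Log2 fold change of benzamil over DMSO (horizontal axis) for the 9 genes with all 10 libraries (black lines), without 1 benzamil library (green), without 1 DMSO library (pink) and under other settings or tools (grey triangles); open symbols have an adjusted p of 0.05 or more. Among fits that leave out 1 library, Lcn2 (-3.39), Defb4 (-6.94) and Saa1 (-3.95) lie furthest from their all-library value without benzamil library 4; limma on the deposited log2 values gives -1.13, -1.40 and -0.86 for these genes, and no called gene crosses 0.

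The authors' deposited table for benzamil over DMSO called fewer of these genes. It had Defb3, Defb4, Defb6, Slpi and Saa1 lower, Wfdc21 higher, and no call for Lcn2, Chil1 and Wfdc12, where 6.43% of the genes with an adjusted p in that table were lower and 4.96% higher. The authors' deposited table gives Lcn2 a log2 fold change of -0.71 ± 0.41 (SE) with an adjusted p of 0.258, and Chil1 -0.94 ± 0.38 with an adjusted p of 0.0917. For all 9 genes the fold change in the authors' deposited table is nearer 0 than in the edgeR fit, and the Lcn2 and Chil1 calls differ between them. DESeq2 rerun here on the recovered reads of all 10 libraries called both, at adjusted p-values of 0.0444 for Lcn2 and 0.0152 for Chil1. That rerun put Defb4 at -4.37, against -1.96 in the authors' deposited table. The deposited fold change over its SE is 1.158 times the deposited Wald score for Defb4 and 1.001 times for Defb6. Deposited and edgeR sizes may therefore not be like measures, which was not tested. The authors' deposited table for untreated skin, coded as untreated over DMSO, has Defb3 (-2.76 ± 0.78), Defb6 (-3.24 ± 0.44) and Chil1 (-3.90 ± 0.60) lower in untreated skin and no call for the other 6, Wfdc21 included (adjusted p = 0.086), with 4.65% of its genes lower, 5.18% higher and 9.84% called in either direction.

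Over the 10 libraries, log2 CPM values of the 7 genes that fell had pairwise Pearson correlations of 0.64 (Lcn2 with Chil1) to 0.89 (Defb3 with Chil1). Wfdc21 ran against them at -0.72 (with Defb4) to -0.22 (with Chil1). The libraries share groups and differ in depth, so these values carry the group levels as well as any spread within a group. For the 4 genes with the most reads, the non-member genes most like them over the 10 libraries were Il36a (0.978) and Chmp2b (0.974) for Defb6, Bltp2 (0.967) and Cd24a (0.964) for Chil1, Tram1 (0.941) and Ddx39a (0.937) for Slpi, and Il6ra (0.93) and Gpr107 (0.91) for Wfdc21. Il36a, an IL-1 family cytokine, averaged 128.9 ± 29.4 CPM with benzamil, 269.6 ± 12.2 CPM with DMSO and 6.73 ± 9.52 CPM in untreated skin (SD, n = 4, 4 and 2).

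Other antimicrobial and alarmin genes went the same way in benzamil over DMSO where they were called. Of 26 listed, 12 were in both tables and 7 were tested, and with benzamil 4 were lower and 0 higher (median log2 fold change -0.82, against -0.01 over all tested genes). Over all tested genes 12.1% were lower and 9.91% higher. The list was chosen with earlier results of these data known, so the count and the median are not evidence beyond the single genes. S100a9 (-3.25 ± 0.49, adjusted p = 5.44e-05) and S100a8 (-3.09 ± 0.55, adjusted p = 0.000301), the calprotectin subunits, fell with the antimicrobial ribonuclease Rnase4 (-1.11 ± 0.25, adjusted p = 0.0026) and the constitutive defensin Defb1 (-0.82 ± 0.30, adjusted p = 0.0469). Defb14, Cxcl14 and Apod were not called. In DMSO over untreated S100a8 and S100a9 were called higher, while Rnase4 (adjusted p = 0.317) and Defb1 (adjusted p = 0.231) were not called. Rnase4 stood at 66.9 ± 16.2 CPM with benzamil, 145.1 ± 12.0 CPM with DMSO and 208.2 ± 104.1 CPM in untreated skin (SD, n = 4, 4 and 2). It was called lower in benzamil over untreated (-1.61 ± 0.38, adjusted p = 0.0155). S100a7a, Lyz2, Pglyrp4, Ang and Rarres2 (5 genes) had too few reads for the test, among them S100a7a with 0 reads with benzamil, 24 with DMSO and 0 in untreated skin.

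Closer relatives of the members were mostly below the test's reach. Of 21 listed WAP and Kunitz-type inhibitor genes 3 were tested, the WAP gene Wfdc5 and the Kunitz-type inhibitors Spint1 and Spint2, and 0 were called. The WAP genes Wfdc17 (6 reads with benzamil, 44 with DMSO, 1 in untreated skin) and Wfdc18 (2 reads with benzamil, 9 with DMSO, 2 in untreated skin) had too few reads for the test. Of the chitinase family Chit1, an active chitinase, was tested and fell with benzamil (-1.22 ± 0.33, adjusted p = 0.00959), at 50.6 ± 14.5 CPM with benzamil and 116.0 ± 51.8 CPM with DMSO (SD, n = 4 each). Orm1, the tested one of 15 acute-phase and complement genes, was not called (0.43 ± 0.34, adjusted p = 0.375), and Saa3, a second inducible serum amyloid A, had 2 reads with benzamil, 24 with DMSO and 0 in untreated skin and was not tested. Among receptors and partners of the secreted proteins 2 of 19 were tested, and Cd44, the hyaluronan receptor, fell (-1.51 ± 0.24, adjusted p = 7.99e-05) while Anxa2 was not called.

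IL-17, IL-22 and IL-1 signalling to the epidermis controls many of these secreted proteins in keratinocytes. Of 30 genes listed for it, 25 were in both tables and 19 were tested. With benzamil 12 of the 19 were lower and 1 was higher, with a median log2 fold change of -0.96. Over all tested genes 12.1% were lower and the median was -0.01. Of the 12, 6 (Il1rl2, Il36b, Il1b, Zc3h12a, Bcl3 and Socs3) passed the filter on low values through DMSO libraries alone, so the count and the median are not evidence beyond the single genes. Socs3, a feedback inhibitor of STAT3, had 2 reads with benzamil and 74 with DMSO, a pooled ratio 17.0-fold lower (counting interval 4.55-fold to 143.4-fold, adjusted p = 0.000598). Il1b fell by 3.26 ± 0.63 on the log2 scale (adjusted p = 0.000727), Bcl3, a nuclear IκB protein, by 2.07 ± 0.35 (adjusted p = 0.000183) and Zc3h12a, a ribonuclease that degrades cytokine mRNA, by 1.9 ± 0.39 (adjusted p = 0.000993). Cebpb, which encodes a C/EBP factor, averaged 109.2 ± 42.9 CPM with benzamil, 221.4 ± 27.4 CPM with DMSO and 35.7 ± 12.4 CPM in untreated skin (SD, n = 4, 4 and 2), and was lower with benzamil (-0.96 ± 0.24, adjusted p = 0.0054). Tnip1, an inhibitor of NF-kB signalling, rose (1.34 ± 0.31, adjusted p = 0.00335). Nfkbia, another NF-kB inhibitor gene of the list, fell (-1.83 ± 0.25, adjusted p = 1.98e-05). The receptor chains Il17ra and Il17rc were not called, at 0.97 ± 0.52 and -0.30 ± 0.36, and Il17re and Il22ra1 had too few reads for the test. The listed ligand genes Il17a, Il17f, Il17c and Il22 were not in both tables. No change in IL-17 or IL-22 themselves can therefore be described.

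**Figure D4:**
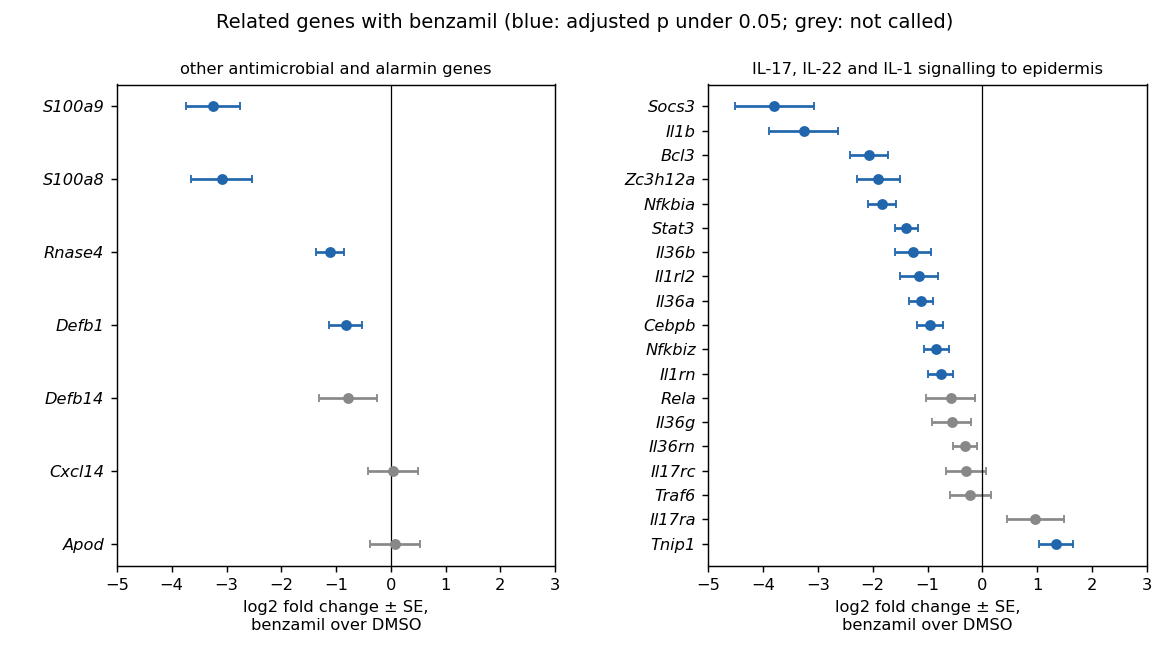
Log2 fold change ± SE of benzamil over DMSO (horizontal axis) for tested genes of 2 listed groups, other antimicrobial and alarmin genes (left) and IL-17, IL-22 and IL-1 signalling to the epidermis (right); blue has an adjusted p under 0.05, grey does not. Called genes lie below 0 except Tnip1 at 1.34.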

How the data were processed

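RNA of 10 mouse skin libraries was measured with a 3' mRNA kit with molecular identifiers (500 ng RNA, 150-cycle kit), per the labels. STAR, featureCounts and DESeq2 with mm10 were used, per the submitters' processing notes. The sources used here give neither their versions nor whether identifiers were collapsed. The authors deposited 2 tables of variance-stabilised log2 values (10653 and 9820 genes), each normalized on its own, and DESeq2 result tables with a mean signal, a log2 fold change, a Wald score and p-values. A deposited count table holds 61533 human identifiers and 0 mouse ones (8752 to 136930 reads per library) and was not used.

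The transform was inverted to whole reads. Of the values, 100% were whole in each table within 0.001 reads, and 39116 of 39116 DMSO values were equal in both. The 9779 genes in both tables were joined, leaving out 874 and 41. The deposited unit is log2, so edgeR rests on recovered reads, and limma on the log2 values is an alternative. edgeR 4.0.16 (R 4.3.3, limma 3.58.1, DESeq2 1.42.0) fitted all 10 libraries with TMM scaling and its expression filter (34.9 CPM or more in 2 libraries, 15 reads in all). The SE is the log2 fold change over the root of the F statistic. Tested on simulated data with 100 genes changed per fold size, it found 43% of 2-fold and 80% of 4-fold changes in benzamil over DMSO, with 3 calls on unchanged genes of 5245. Where a group had 0 reads, a floor of 3 reads over the group was used. Intervals (exact, 95%) and floors cover counting error only. Replicate pairs differed beyond sampling noise (chi-square per degree of freedom 2.22 to 8.97 over genes with 30 or more reads), so none was counted as 1 library.

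The 9 genes are all described. In each list, called genes with the largest change in benzamil over DMSO are named, up to 4, with others as background. Cebpb, Nfkbia, S100a7a, Saa3, Wfdc17, Wfdc18, the neutrophil and suprabasal markers and the uncalled genes were named after their values were seen. Members, lists and tests were chosen with earlier results of these data known. Positions and transcripts are from GENCODE M21 and upstream sequences from RefSeq.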

Additional observations from a re-analysis of the deposited data

Results flagged for a closer look

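Values of single libraries stood apart from the rest of their group in 2 cases (18 groups of 4 were examined by Dixon's test, which flags about 1 in 20 by chance). Both are in benzamil library 4. Defb4 stood at 15.9 CPM (2 reads) there and at 0 CPM in the other benzamil libraries. Lcn2 stood at 79.4 CPM (10 reads) there, against 0 to 9.1 CPM in the other benzamil libraries.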

How the results depend on the processing

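Over the 9 genes, results in benzamil over DMSO kept direction and call in 150 gene and setting pairs and lost the call in 4. Only pairs in which the gene was tested are counted, here and in the other comparisons. In benzamil over DMSO Saa1 was tested in 9 alternative fits and Defb4 in 15, against 20 for Defb6 and Chil1. In DMSO over untreated 141 stayed, 16 became called, 4 lost the call and 1 reversed, and in benzamil over untreated 122 stayed, 11 lost the call and 3 reversed. The reversals were Wfdc21 in DMSO over untreated at 0.24 without untreated library 2 (-2.37 to 0.24 over left-out libraries), and in benzamil over untreated Lcn2 at -0.14 without benzamil library 4 (-0.14 to 5.52), and Slpi at -0.04 (-0.04 to 5.05) and Wfdc21 at 1.55 (-1.03 to 1.55) without untreated library 2. The cause was not tested.

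Of the 9 genes, 8 were called in benzamil over DMSO. It was 5 with each table on its own and 5 with only the 2 groups compared, where 5 of the 9 were tested, and 0 after thinning to 71144 reads, where 2 were tested. In DMSO over untreated 4 were called. It was 7 with no filter, 8 with limma on the deposited log2 values and 1 after thinning. In benzamil over untreated 2 were called. It was 1 with DESeq2 size factors, 1 with total reads alone, 1 with only the 2 groups compared and 0 after thinning. Leaving out 1 library gave 6 to 8, 3 to 6 and 0 to 2 genes in the 3 comparisons, and 647 to 1413, 433 to 979 and 99 to 233 genes over the whole table, against 1155, 964 and 210 with all libraries (1851, 1746 and 992 at an unadjusted p under 0.05). The lowest of these came without DMSO library 1 in benzamil over DMSO and without untreated library 1 in the other comparisons. After thinning, 22, 48 and 20 genes were called in all, and limma called 2910 in DMSO over untreated. Scaling by total reads alone moved the median of all genes by -0.25 in benzamil over DMSO and gave 248 higher and 1009 lower genes against 520 and 635. It left the same 8 of the 9 genes called. It moved the median by 0.10 in DMSO over untreated and -0.17 in benzamil over untreated, where it gave 63 higher and 105 lower genes against 128 and 82. Depth limits the untreated comparisons most, since 3 reads there are 40.4 to 44.5 CPM.

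Same-numbered benzamil and DMSO libraries deviated from their group means with correlations of 0.069, 0.001, 0.041 and 0.068. At this depth counting noise enters these values, so they cannot decide whether same-numbered samples are related. With the replicate number as a block, edgeR called 8, 5 and 2 of the 9 genes and 1059, 963 and 147 genes in all. The 8 and the 2 were the genes called without the block. In DMSO over untreated 3 of the 4 calls were shared: Wfdc21 was no longer called (-1.49, adjusted p = 0.0672), while Defb4 (adjusted p = 0.0334) and Slpi (adjusted p = 0.0248) were.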
